A study of Homo sapiens with 12 samples.

Results

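The comparison described here sets cells treated with 18DS beside cells treated with BKM120, in 6 of the 12 libraries of the study. The cells were OPM2, an established human multiple myeloma line that grows as malignant plasma cells in culture. 18DS is, in the submitters' description, a small chimeric compound designed to block PI3-kinase (PI3K) and the BET bromodomain proteins. BKM120 (buparlisib) is an inhibitor of PI3K. The 3 libraries of the 18DS group received 250 nM and the 3 libraries of the BKM120 group received 1 µM, each for 2 h, and the labels call each group a biological triplicate. The doses differ, so a difference between the groups is a difference between these 2 treatments and not between the compounds at a matched dose. The other 6 libraries, 3 with the vehicle DMSO and 3 with JQ1, a BET bromodomain inhibitor given at 250 nM for 2 h, served for the spread between replicates and as a reference for each gene. No library received JQ1 together with BKM120. All values come from this 1 line.

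PI3K makes a membrane lipid that recruits and activates the kinase AKT, and AKT phosphorylates the FOXO transcription factors and keeps them out of the nucleus. When PI3K is blocked, FOXO factors enter the nucleus and switch on genes that slow growth, among them the cyclin regulator CCNG2, the transcriptional repressor HBP1 and the receptor substrate IRS2. BET proteins such as BRD2 bind acetylated histones and help recruit the elongation kinase P-TEFb. In myeloma, BET inhibitors are known for lowering MYC and for raising HEXIM1, a protein that holds P-TEFb in an inactive complex with the 7SK RNA. The question that the pairing of 18DS with BKM120 poses is how transcripts differ between the dual compound and a PI3K inhibitor used alone, each at the dose given.

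Transcripts were counted with a 3′ tag method (QuantSeq), which samples the end of each polyadenylated RNA and so gives no isoform detail. Library totals were 5882214 to 7292895 counts with 18DS and 5563788 to 6883854 with BKM120, and 13180 of 63152 gene identifiers were abundant enough to test. At this depth and with 3 libraries a group, the median standard error (SE) of a log2 difference between 18DS and BKM120 was 0.17. Mitochondrially encoded transcripts took 6.95% to 7.60% of the counts with 18DS and 6.99% to 7.65% with BKM120. On the first principal component of the 6 libraries (44.7% of the variance) the 18DS libraries scored -29.2 to -18.8 and the BKM120 libraries 23.9 to 25.7. On the second component (19.4%) 18DS replicate 2 scored -28.2 while 18DS replicates 1 and 3 scored 20.9 and 11.6, so this library stood apart from its group. Of the 101 genes named by rule and called in the comparison, 100 kept their call and direction without 18DS replicate 2. The exception was *PFKP*, given below.

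Markers of plasma cells were abundant. *SDC1* (CD138) had a mean of 256 normalised counts (CPM, scaled to the library total) with 18DS and 261 with BKM120, and *NSD2*, which is translocated in this line together with *FGFR3*, had 856 and 684. Of the 9 plasma cell and line markers checked, *NSD2* was higher with 18DS (log2 0.32), and *TNFRSF17* (-0.68), *PRDM1* (-0.46), *FGFR3* (-0.42), *XBP1* (-0.39) and *IRF4* (-0.29) were lower. *SDC1* (-0.03), *MZB1* (-0.10) and *POU2AF1* (-0.16) did not pass the test. Of the markers of T and NK cells, 1 of 17 matched was abundant enough to test (*NCAM1*, also known in myeloma), and *CD3D*, *TRBC1*, *TRBC2* and *NKG7* had no count in the 6 libraries. The summed level of the 16 myeloid markers was 5.83 to 8.36 CPM with 18DS and 2.59 to 6.10 CPM with BKM120, with *FCGR3A*, *CD163* and *FCN1* at 0. These sums were scaled to the plain library totals, without TMM. *FCGR1A* of this list, an Fc receptor, had too few counts to pass the filter. It was called higher with 18DS in 11 of the other settings, by 2.72 to 4.23 on the log2 scale. These were the fit with no filter and fits with 1 library left out, but not those without 18DS replicate 2 or 3. They refit the same few counts and could admit the gene through the group where it is high, so they are not separate support. The part of *FCGR1A* in other results was not tested. Of the 15 epithelial and fibroblast markers only *VIM* passed the filter, and *COL1A2*, *COL3A1*, *LUM* and *PDGFRB* had no count. In bulk RNA, fewer cells of a type and less RNA per cell cannot be told apart.

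Between 18DS and BKM120, 1491 genes passed edgeR's quasi-likelihood test (Benjamini-Hochberg adjustment, threshold 0.05) and are said to be called, which is 11.3% of the genes tested. Of these, 612 (4.64%) were higher and 879 (6.67%) lower with 18DS. A difference of more than 2-fold was seen in 184 of the higher and 207 of the lower genes, and the median log2 difference was 0.67 among the higher and -0.66 among the lower genes. Over all genes tested the median was 0.00, and 3156 genes had an unadjusted p under 0.05. The 3 libraries of each group did not overlap for 3376 genes (25.6%), with 18DS above BKM120 in 1529 (11.6%) and below it in 1847 (14%). For scale, against DMSO the same test called 801 genes (6.08%) with JQ1, 1082 (8.21%) with BKM120 and 2769 (21%) with 18DS.

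**Figure D1:**
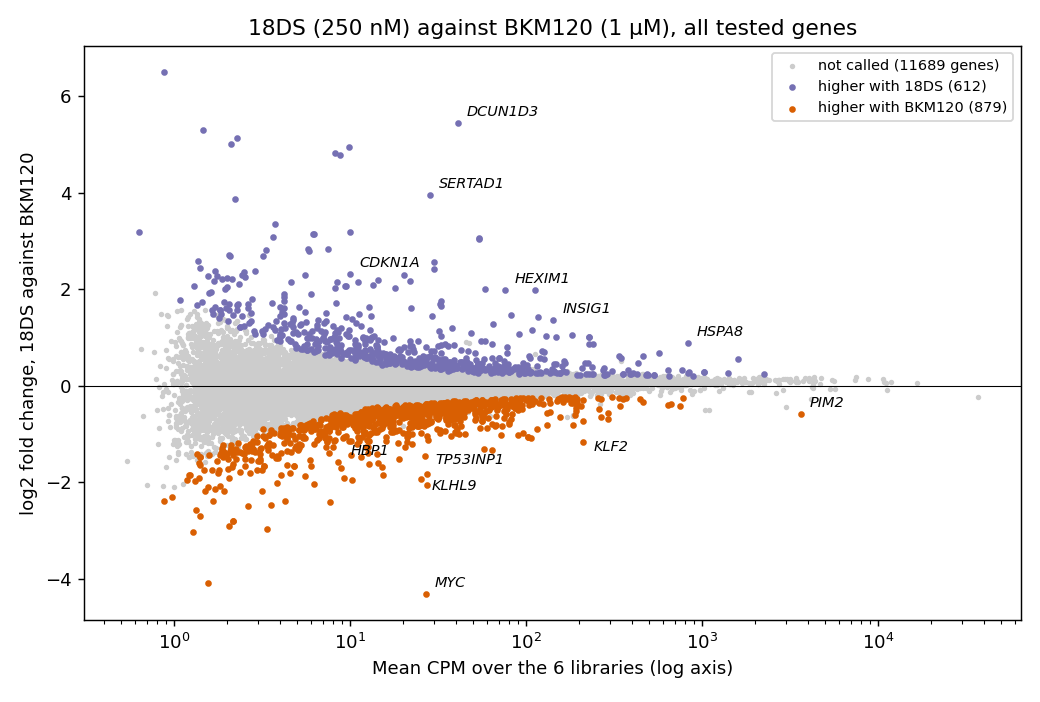
Each point is 1 of the 13180 tested genes, placed by its mean level over the 6 libraries (CPM, log axis) and its log2 fold change of 18DS against BKM120. Purple points are the 612 genes higher with 18DS, orange points the 879 genes higher with BKM120 and grey points the genes not called; *DCUN1D3* lies near the top at 5.43 and *MYC* at the bottom at -4.32.

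A wide separation was seen in *MYC* (ENSG00000136997), the growth-promoting transcription factor whose overexpression is common in myeloma. It read 56.5, 47.4 and 50.1 CPM in the BKM120 libraries and 3.66, 2.46 and 1.42 CPM in the 18DS libraries. The groups were far apart, with the highest 18DS library far under the lowest BKM120 library. The difference was 19.9-fold lower with 18DS (log2 -4.32, SE 0.18, 95% confidence interval -4.69 to -3.94, adjusted p = 2.04e-19). Against DMSO (29.3 ± 2.61 CPM, SD, n = 3) *MYC* rose with BKM120, by 0.81 on the log2 scale, and fell by 3.51 with 18DS, so the distance between the 2 treatments holds changes in opposite directions. JQ1 at the same 250 nM left *MYC* at 2.54 ± 0.343 CPM (SD, n = 3).

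*CDKN1A* (ENSG00000124762), which encodes the cyclin-dependent kinase inhibitor p21, showed a second pattern of opposite changes. Its levels were 2.58, 3.25 and 4.31 CPM with BKM120 and 17.5, 14.9 and 17.5 CPM with 18DS. All 18DS libraries were above all BKM120 libraries, a difference of 4.96-fold (log2 2.31, SE 0.21, adjusted p = 1.58e-10). DMSO cells had 8.95 ± 1.45 CPM (SD, n = 3), between the treatments: *CDKN1A* fell by 1.42 on the log2 scale with BKM120 and rose by 0.89 with 18DS.

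*TP53INP1* and *HBP1* lay the other way. *TP53INP1* (ENSG00000164938), a stress protein that acts in autophagy and with p53, read 35.9, 42.1 and 39.5 CPM with BKM120 and 16.5, 11.1 and 14.7 CPM with 18DS (log2 -1.46, SE 0.15, adjusted p = 1.93e-09). The groups did not overlap, and the DMSO level was 8.9 ± 1.31 CPM (SD, n = 3). *HBP1* (ENSG00000105856), a repressor that restrains entry into S phase, read 30.1, 28.5 and 28.2 CPM with BKM120 and 12.3, 10.2 and 13.3 CPM with 18DS (log2 -1.28, SE 0.14, adjusted p = 2.91e-08). Here 18DS lay close to DMSO (10.1 ± 0.394 CPM, SD, n = 3), from which it differed by 0.25 on the log2 scale without passing the test (adjusted p = 0.30). *TP53INP1* did rise with 18DS against DMSO, by 0.67, and by 2.13 with BKM120.

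**Figure D2:**
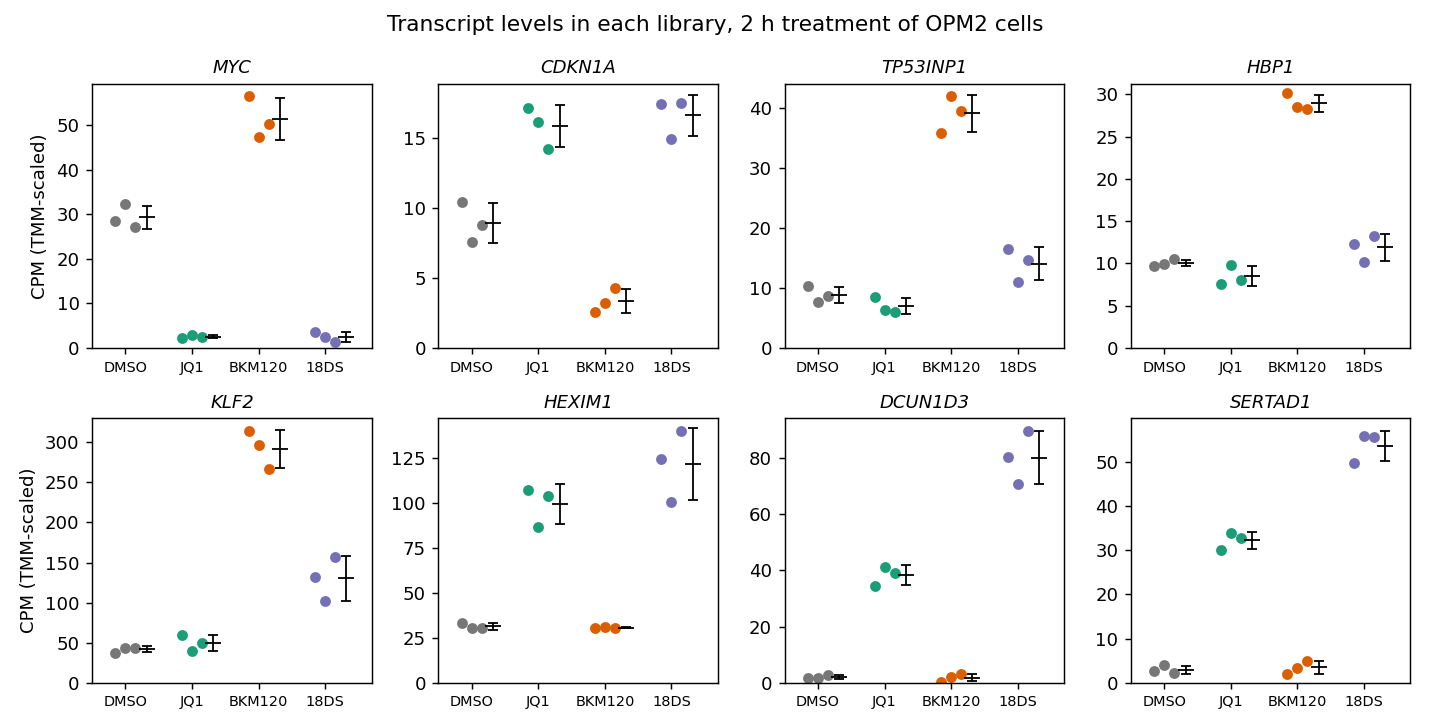
Transcript level (CPM after TMM scaling, linear axes from 0) of 8 genes in every library, with dots for libraries and bars for the mean and SD of the 3 libraries of a group. *MYC* is low with JQ1 and 18DS and highest with BKM120; *TP53INP1*, *HBP1* and *KLF2* are highest with BKM120; *HEXIM1*, *DCUN1D3* and *SERTAD1* are near the DMSO level with BKM120 and high with JQ1 and 18DS.

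Genes known to answer to BET inhibitors were higher with 18DS almost throughout. Of 12 tested members, 10 were higher and none was lower, beside 4.64% and 6.67% of all genes, with a median log2 difference of 1.72. DESeq2's Wald test gave the same counts. *DCUN1D3*, a regulator of cullin neddylation, read 80.2, 70.6 and 89.5 CPM with 18DS and 0.483, 2.07 and 3.05 CPM with BKM120, the largest difference among the genes named by rule (43.2-fold, log2 5.43, SE 0.22, adjusted p = 1.13e-15). *SERTAD1*, a cofactor of CDK4 and E2F, read 49.6, 55.7 and 55.4 CPM with 18DS and 2.09, 3.40 and 5.03 CPM with BKM120 (log2 3.94, SE 0.18). In neither gene did BKM120 differ from DMSO beyond the test's threshold. *HEXIM1* was 124, 101 and 140 CPM with 18DS against 30.8, 30.9 and 30.4 CPM with BKM120 and 31.5 ± 1.85 CPM (SD, n = 3) with DMSO. The BKM120 libraries thus sat at the vehicle level while every 18DS library was above them, by 3.97-fold on the fitted scale (log2 1.99, SE 0.11, adjusted p = 5.38e-16).

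The median difference was much smaller among genes of the complexes that BET proteins and HEXIM1 work with. Of 29 tested genes of P-TEFb, the 7SK particle and the BET family, 4 were higher, *HEXIM1* among them, and 3 lower. The share called was 24.1%, beside 11.3% of all genes, and the median was 0.05. *BRD2*, itself a BET protein, was 247 CPM with 18DS and 119 CPM with BKM120 on average (log2 1.06, SE 0.08). *MEPCE*, which caps the 7SK RNA, was higher by 0.82 (SE 0.11), whereas *LARP7*, which binds and steadies the end of that RNA, was lower by 0.64 (SE 0.09, log2 -0.64).

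Histone genes formed a related group. QuantSeq captures polyadenylated RNA, while most histone messages of dividing cells end without a poly(A) tail, so the values concern the polyadenylated forms. Of 23 tested histone transcripts, 11 were higher with 18DS and none was lower (median 0.51). That is 47.8% called, beside 11.3% of all genes. *H2BC21* read 56.7, 44.1 and 54.2 CPM with 18DS and 9.5, 8.12 and 8.80 CPM with BKM120 (log2 2.55, SE 0.14). The clustered genes *H2BC12*, *H2AC6* and *H3C4* were higher by 1.42, 2.02 and 3.20. *H3C14* and *H3C15*, which lie outside that list, were higher by 3.15 and 3.14, but these genes are near-identical copies and their reads may be shared. Several of these genes stand in the BET response list too, so the counts of the lists are not separate.

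Between 18DS and BKM120, the partners and targets of MYC did not follow it as a block. Of 12 genes of the MAX network, *MYC* and *MXI1* were lower and *MXD1* higher (25% called, beside 11.3% of all genes). *MXI1*, a repressor that competes with MYC for MAX, was 21.6 ± 0.929 CPM with 18DS and 40.5 ± 3.77 CPM with BKM120 (SD, n = 3 each; log2 -0.90, SE 0.12). *MXD1*, a repressor of the same family, differed by 0.73 (SE 0.21, adjusted p = 0.0185), and its call was lost without 18DS replicate 3 (adjusted p = 0.117) or without BKM120 replicate 2 (adjusted p = 0.120). Among 62 tested genes known to be activated by MYC, 10 were lower and 1 higher (7 calls in all without BKM120 replicate 3). Their median was -0.05, and most did not pass the test (17.7% called, beside 11.3% of all genes). *TFAP4*, a transcription factor induced by MYC, differed most among those named (log2 -1.39, SE 0.17). Against DMSO, whose libraries these comparisons share, 27 of the 62 were lower and 5 higher with 18DS. With BKM120 13 were lower and 1 higher, and with JQ1 12 and 0. Of all genes, 11% fell with 18DS, 4.14% with BKM120 and 3.45% with JQ1. The small differences between 18DS and BKM120 thus do not mean that the list stayed at the DMSO level with 18DS.

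Ribosome biogenesis factors, many of them MYC targets, gave 14 lower and 0 higher of 90 tested, with a median of -0.10. At an unadjusted p under 0.05 edgeR gave 26 lower and 3 higher, and DESeq2's adjusted test gave 11 and 0. The 14 calls, beside 6.67% lower among all genes, fell to 7 without 18DS replicate 3 and to 8 without any 1 of the 3 BKM120 libraries. The largest was *UTP25*, a factor of the small subunit processome, at 4.37, 3.69 and 3.47 CPM with 18DS and 16.3, 14 and 13.7 CPM with BKM120 (log2 -1.92, SE 0.21). *WDR74*, *RRS1* and *WDR43*, which act in pre-ribosome assembly, were lower by 0.73, 0.81 and 0.51 on the log2 scale (log2 -0.73, -0.81 and -0.51). Of 89 ribosomal protein and translation factor genes, 1 was called, higher with 18DS (1.12%, beside 11.3% of all genes). The count was 0 to 7 with 1 library left out (7 without BKM120 replicate 2). The median of the 89 genes was 0.10. Against DMSO, 44 of the 90 biogenesis factors were lower and 1 higher with 18DS, 23 and 0 with BKM120, and 22 and 0 with JQ1. Of the 89 ribosomal protein and translation factor genes, 39 rose against DMSO with 18DS, 13 with BKM120 and 0 with JQ1, and 0 fell. Among all genes 9.96% rose and 11% fell with 18DS, 4.07% and 4.14% with BKM120, and 2.63% and 3.45% with JQ1.

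FOXO-activated genes were the other large block, and most lay on the BKM120 side. Of 44 tested, 20 were lower and 5 higher with 18DS, with a median log2 difference of -0.49. Among all genes 6.67% were lower and 4.64% higher, and the share called was 56.8% in the list and 11.3% overall among the genes tested. Side by side, and with libraries shared between these comparisons, 21 of the 44 rose and 2 fell with BKM120 against DMSO (median 0.53; 4.07% of all genes rose and 4.14% fell), and 15 rose and 4 fell with 18DS against DMSO (9.96% and 11% of all genes). JQ1 against DMSO, which shares no library with 18DS against BKM120, gave 6 higher and 2 lower and a median of -0.11 (2.63% and 3.45% of all genes).

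For 7 of the 37 tested members that have a promoter in the RefSeq table (18.9%), the 300-base window from 250 bases before to 50 after the annotated start holds the letters GTAAACA on either strand, the core that FOXO and other forkhead proteins bind. The same letters occur in 3.41% of all 27305 windows, in 2.24% of those of tested genes, in 5.26% of those of genes lower with 18DS and in 0.694% of those of genes higher with 18DS. A match is a description of the letters and not a measured binding site. The 7 members are *HBP1*, *BTG1*, *YPEL3*, *DEPP1*, *TRIB2*, *BCL2L11* and *FOXO4*. Windows are shown for the 3 of them that are among the genes named by rule, which had a large, a small and no called difference. Each is written along the gene's own strand with the match in capitals (GTAAACA, or TGTTTAC where it is on the opposite strand).
*HBP1* (GRCh38.p14, chr7:107168753-107169052, plus strand, match starting at -173): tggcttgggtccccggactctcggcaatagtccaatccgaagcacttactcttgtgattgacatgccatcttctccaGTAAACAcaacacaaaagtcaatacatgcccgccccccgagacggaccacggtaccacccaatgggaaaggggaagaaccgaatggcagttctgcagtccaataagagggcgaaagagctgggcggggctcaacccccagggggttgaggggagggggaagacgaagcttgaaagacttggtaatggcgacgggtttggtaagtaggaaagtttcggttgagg
*BTG1* (GRCh38.p14, chr12:92145797-92146096, minus strand, match at -209 on the opposite strand): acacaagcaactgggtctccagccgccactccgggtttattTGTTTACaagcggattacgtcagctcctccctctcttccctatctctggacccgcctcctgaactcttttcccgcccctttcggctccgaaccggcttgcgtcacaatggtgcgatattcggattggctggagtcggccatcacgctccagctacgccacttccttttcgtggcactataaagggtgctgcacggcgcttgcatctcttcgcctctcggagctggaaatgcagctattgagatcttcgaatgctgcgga
*BCL2L11* (GRCh38.p14, chr2:111120664-111120963, plus strand, match at -223): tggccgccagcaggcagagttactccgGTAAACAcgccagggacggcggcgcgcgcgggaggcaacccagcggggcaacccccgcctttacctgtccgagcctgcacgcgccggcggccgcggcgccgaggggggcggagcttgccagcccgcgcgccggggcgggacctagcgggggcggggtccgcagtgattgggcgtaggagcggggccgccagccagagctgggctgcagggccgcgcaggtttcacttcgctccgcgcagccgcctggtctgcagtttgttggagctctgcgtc

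*BTG1*, which restrains proliferation, read 356, 328 and 363 CPM with BKM120 and 230, 222 and 251 CPM with 18DS (log2 -0.57, SE 0.07, adjusted p = 4.68e-07). The DMSO libraries were lower still, at 173 to 186 CPM, so both treatments rose against DMSO, BKM120 by 0.95 and 18DS by 0.38. *BCL2L11*, which encodes the death-promoting protein BIM, was 44.0 ± 1.62 CPM with BKM120 and 36.4 ± 2.15 CPM with 18DS (SD, n = 3 each), and its difference of -0.27 (SE 0.11) did not pass the test (adjusted p = 0.0955). Together with *HBP1*, whose difference was -1.28, these genes show how unequal the members were even where the same letters occur.

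The members with the largest differences on the BKM120 side had few counts. *CCNG2*, an unusual cyclin that goes with growth arrest, read 8.85, 9.45 and 8.09 CPM with BKM120 and 2.54, 0.878 and 3.63 CPM with 18DS (log2 -1.87, SE 0.31, adjusted p = 3.33e-05). *PIK3IP1*, a membrane protein that restrains PI3K, read 3.7, 3.25 and 4.49 CPM with BKM120 and 0.564, 0.702 and 0.316 CPM with 18DS (log2 -2.81, SE 0.53), and the wide error goes with its low level. In neither gene did 18DS differ from DMSO beyond the threshold (log2 0.64 for *CCNG2*, adjusted p = 0.27, and -0.01 for *PIK3IP1*). *BBC3*, which encodes the death-promoting protein PUMA, was between the others: 17.7, 19.8 and 16.0 CPM with BKM120, 7.19, 6.15 and 8.84 CPM with 18DS, and 2.80 to 4.33 CPM with DMSO (log2 -1.27 for 18DS against BKM120, SE 0.19).

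*KLF2* (ENSG00000127528), a transcription factor that FOXO activates in lymphoid cells, read 313, 296 and 266 CPM with BKM120 and 132, 102 and 157 CPM with 18DS, beside 41.9 ± 3.62 CPM (SD, n = 3) with DMSO. The BKM120 libraries were the highest, the 18DS libraries lay between, and no 2 of these 3 groups overlapped. The difference was 2.24-fold (log2 -1.16, SE 0.15, adjusted p = 0.000144). JQ1 against DMSO differed by 0.25 without passing the test (adjusted p = 0.52).

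*IRS2*, the receptor substrate that couples insulin signals to PI3K, did not share this pattern. It read 25.1, 19.5 and 29.8 CPM with BKM120 and 23.0, 23.4 and 27.0 CPM with 18DS, so the groups overlapped (log2 -0.01, 95% confidence interval -0.32 to 0.29, adjusted p = 0.968). Against DMSO it rose by 1.53 with BKM120 and by 1.52 with 18DS. The sign of the estimate between 18DS and BKM120 turned in 5 of the other settings.

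The 5 FOXO-list genes that were higher with 18DS were *CDKN1A*, described above, *CDKN2D*, which encodes the CDK inhibitor p19, *RHOB*, a small GTPase, *BCL6*, a repressor of B cells, and *SESN3*, a sestrin. The last 2 are named because they complete the count. *CDKN2D* (log2 0.80, SE 0.13) and *RHOB* (1.02, SE 0.16) also rose with JQ1 against DMSO, by 0.82 and 0.81. *BCL6* (1.29, SE 0.30) and *SESN3* (1.56, SE 0.47) had few counts, at 6.67 and 3.08 CPM on average with 18DS.

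**Figure D3:**
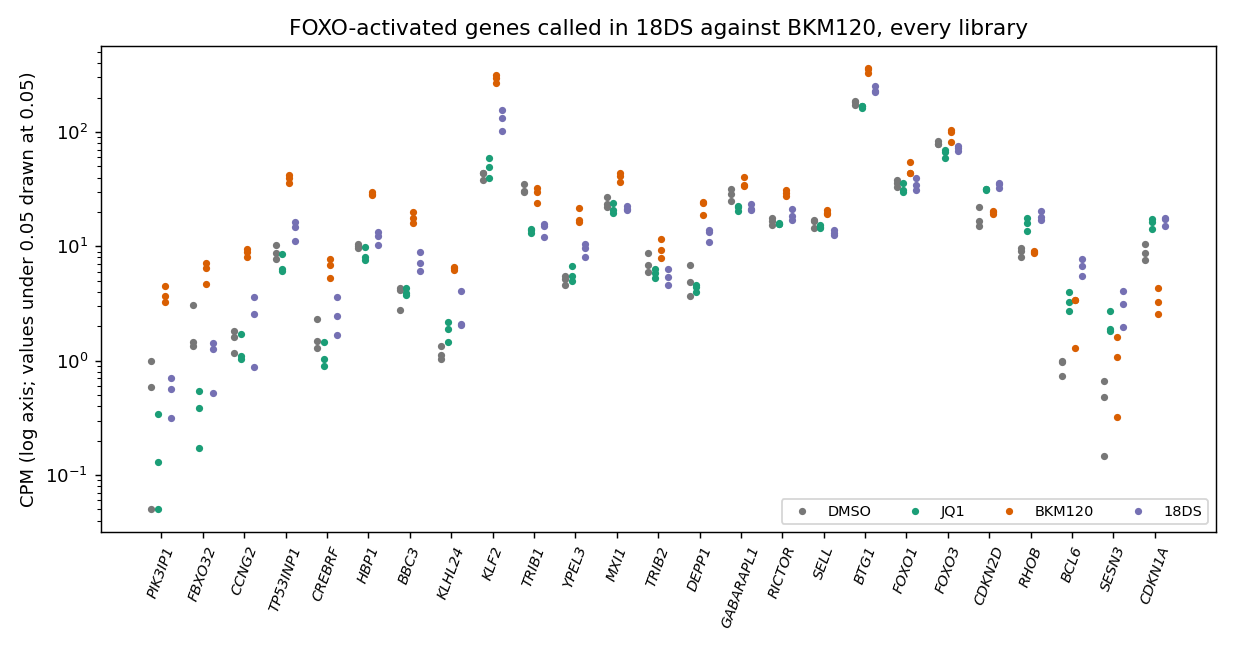
Level (CPM, log axis, values under 0.05 drawn at 0.05) of the 25 FOXO-activated genes called between 18DS and BKM120, in each of the 12 libraries. For the first 20 genes the orange BKM120 dots are above the purple 18DS dots; the grey DMSO dots of *HBP1*, *CCNG2* and *RICTOR* lie near the 18DS dots, whereas those of *KLF2*, *BBC3* and *DEPP1* lie under them.

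Components of the pathway itself went both ways. Of 42 insulin and PI3K pathway genes, 4 were higher and 6 lower (23.8% called, beside 11.3% of all genes). *PIK3IP1* and *RICTOR*, 2 of the 6, also stand in the FOXO list. *RICTOR*, a subunit of the mTORC2 kinase complex, was 18.8 CPM with 18DS and 29.4 CPM with BKM120 on average (log2 -0.65, SE 0.13). *PIK3R1*, the regulatory subunit of PI3K, was higher with 18DS (0.61, SE 0.14), as was *EIF4EBP2*, a brake on translation (0.40, SE 0.09). The count of 10 fell to 5 without 18DS replicate 2 and to 6 without any 1 of the BKM120 libraries. Of 16 tested KLF and SP transcription factor genes, 9 were lower and 1 higher (62.5% called, beside 11.3% of all genes), with a median of -0.64. Besides *KLF2*, *KLF13* was 53 CPM with 18DS and 81.8 CPM with BKM120 (log2 -0.62, SE 0.10), *SP2* was lower (log2 -1.13, SE 0.23), and *KLF5* was the 1 that was higher (1.63, SE 0.29).

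Among regulators of the G1 phase, 3 of 13 D cyclin and CDK inhibitor genes were higher with 18DS and none was lower (23.1% called, beside 11.3% of all genes). The 3 were *CDKN1A*, *CDKN2D* and *CDKN2B* (0.99, SE 0.22). *CCND2*, a D cyclin often expressed in myeloma, differed by 0.23 (adjusted p = 0.136), and this value passed the test without BKM120 replicate 2 (0.36, adjusted p = 0.0147) or without DMSO replicate 1 (0.25, adjusted p = 0.0466). Genes of the G2 and M phases gave 20 lower and 0 higher of 62 tested (32.3% called, beside 11.3% of all genes), with a median of -0.27. At an unadjusted p under 0.05 edgeR gave 35 lower and 1 higher, and DESeq2's adjusted test gave 15 and 0. *AURKA*, a kinase of the mitotic spindle, read 50.7, 45.3 and 47.1 CPM with 18DS and 83.2, 84.3 and 88.4 CPM with BKM120 (log2 -0.84, SE 0.09). *CCNA2*, the cyclin of S phase and mitotic entry, differed by -0.57 (SE 0.09), *ARHGAP11A* by -0.70 (SE 0.10) and *CENPF*, a kinetochore protein, by -0.52 (SE 0.08). The 20 calls fell to 12 without 18DS replicate 3 and to 13 without BKM120 replicate 1. Genes of the G1 to S transition gave 8 lower and 3 higher of 60 (18.3% called, beside 11.3% of all genes). *E2F2* was lower (log2 -0.82, SE 0.09) and *RRM2*, a subunit of ribonucleotide reductase, higher (0.46, SE 0.07).

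Genes activated by p53 went both ways, and called BCL2 family genes were on the BKM120 side. Of 26 p53-activated genes, 4 were higher and 4 lower (30.8% called, beside 11.3% of all genes). *SESN2*, a stress protein also driven by ATF4, read 51.0, 47.9 and 49.6 CPM with 18DS and 15.8, 13.7 and 16.9 CPM with BKM120 (log2 1.68, SE 0.12), while *MDM2*, which degrades p53, was lower (log2 -0.94, SE 0.12). Of 13 BCL2 family genes 3 were lower (23.1%) and none was higher, and all 3 promote death. At an unadjusted p under 0.05 edgeR gave 4 lower and 3 higher, and DESeq2's adjusted test gave 3 and 0. *BMF* read 6.77, 8.95 and 7.74 CPM with 18DS and 25.8, 18.5 and 18.0 CPM with BKM120 (log2 -1.42, SE 0.18), beside *BBC3* and *BAK1*. *BAK1* differed by -0.41, and its call was lost without 18DS replicate 3 (adjusted p = 0.0811) or BKM120 replicate 3 (adjusted p = 0.0591). *MCL1*, the survival protein on which myeloma cells often depend, differed by 0.15 (adjusted p = 0.206).

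Plasma cell and myeloma genes were more often on the BKM120 side, with 15 lower and 3 higher of 40 tested and a median of -0.13. That is 45% called, beside 11.3% of all genes. *CCR1*, a chemokine receptor, read 13, 11.6 and 11.7 CPM with 18DS and 38.8, 46.4 and 43.3 CPM with BKM120 (log2 -1.82, SE 0.12). Both treatments were under DMSO, where it read 85.0 to 97.5 CPM. *TNFRSF17*, the surface antigen BCMA, read 225, 223 and 224 CPM with 18DS and 363, 345 and 372 CPM with BKM120 (log2 -0.68, SE 0.07). *IL6ST*, the signalling chain of the interleukin-6 receptor, was 27.0 ± 1.71 CPM with 18DS and 53.6 ± 4.67 CPM with BKM120 (SD, n = 3 each), and with 18DS its difference from DMSO was -0.01 on the log2 scale (SE 0.11, adjusted p = 0.95). *PIM2*, a survival kinase, differed by -0.58 (SE 0.07): it rose by 0.59 with BKM120 against DMSO, and with 18DS its difference from DMSO was 0.01 (adjusted p = 0.93). *IRF4*, the factor on which myeloma cells depend, differed by -0.29 (SE 0.07, adjusted p = 0.00504), and this call was lost without BKM120 replicate 1 (adjusted p = 0.0541). *XBP1* and *FGFR3* were lower by 0.39 and 0.42 on the log2 scale (log2 -0.39 and -0.42).

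Immediate early and stress genes included many that were higher with 18DS. Of 31 immediate early and AP-1 genes, 10 were higher and 4 lower (median 0.16, 45.2% called, beside 11.3% of all genes). *KLF2* and *BTG1* are 2 of the 4. *IER5* read 195, 160 and 181 CPM with 18DS and 42.5, 45.8 and 47.4 CPM with BKM120 (log2 1.98, SE 0.09). The AP-1 subunits *JUN*, *JUNB* and *JUND* were higher by 0.94, 1.08 and 1.15. *IER3* was higher by 2.78 (SE 0.30), but its antisense gene *IER3-AS1* had nearly the same counts, and without a stated strand setting the reads of the pair cannot be told apart. Of 26 heat shock and chaperone genes 7 were higher and none was lower (median 0.22, 26.9% called, beside 11.3% of all genes). Against DMSO, whose libraries these comparisons share, 8 of the 26 fell and 1 rose with BKM120. With 18DS 3 fell and 8 rose. Among all genes 4.14% fell and 4.07% rose with BKM120, and 11% and 9.96% with 18DS. *DNAJB1*, a cofactor of HSP70, read 123, 120 and 119 CPM with 18DS and 40.4, 44.0 and 46.0 CPM with BKM120 (log2 1.48, SE 0.09), with DMSO between them at 70.5 to 79.1 CPM. *HSPA8*, *HSPA1B* and *DNAJA1* were higher by 0.89, 1.89 and 0.55. Against DMSO *DNAJA1* differed by -0.60 with BKM120, and by -0.06 with 18DS without passing edgeR's test (adjusted p = 0.73).

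**Figure D4:**
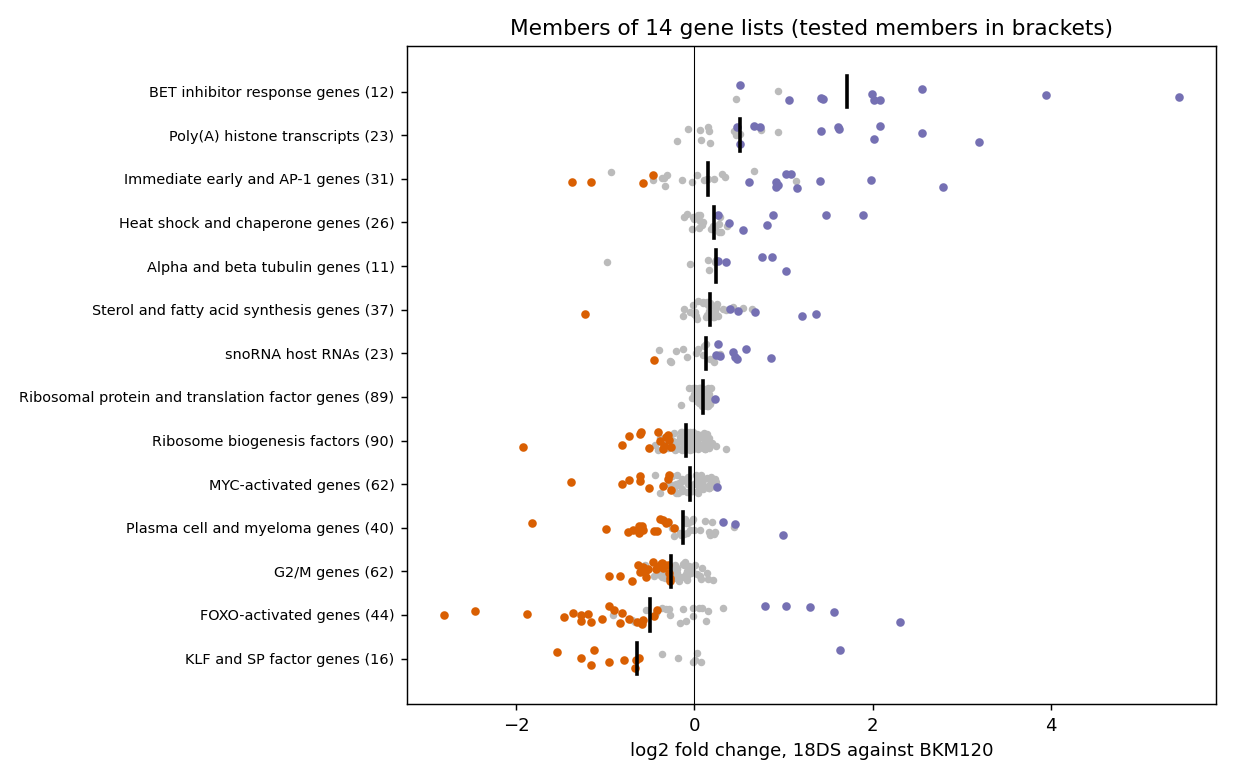
Log2 fold change of 18DS against BKM120 for every tested member of 14 gene lists, with the number of members in brackets; coloured dots passed the test (purple higher with 18DS, orange lower), grey dots did not, and the black bar is the list's median. The medians run from 1.72 for BET response genes to -0.64 for KLF and SP factors, and most members of the MYC-activated and ribosomal lists lie near 0.

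Smaller groups held a few large differences among many small ones. Of 37 sterol and fatty acid synthesis genes 5 were higher and 1 lower (16.2% called, beside 11.3% of all genes). *INSIG1*, which retains the sterol sensor in the endoplasmic reticulum, read 211, 198 and 208 CPM with 18DS and 72.9, 81.4 and 86.4 CPM with BKM120 (log2 1.36, SE 0.08), and DMSO lay between at 135 to 146 CPM. Alpha and beta tubulin genes gave 5 higher and 0 lower of 11 (median 0.24, 45.5% called), led by *TUBB3* at 1.03 and *TUBB4B* at 0.87. The count fell to 3 without 18DS replicate 3, BKM120 replicate 1 or BKM120 replicate 3, each of which removed the call of *TUBB2A* (adjusted p = 0.0516, 0.0751 and 0.0590). Of 23 snoRNA host RNAs 8 were higher and 1 lower (39.1% called, beside 11.3% of all genes). *SNHG12* (0.86, SE 0.09) and *SNHG1* (0.58, SE 0.08) were among the 8. Transcripts of this kind are known to be degraded while they are translated.

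Endoplasmic reticulum folding genes were mostly on the 18DS side among those called, with 6 higher and 1 lower of 36 and a median of 0.05. The share called was 19.4%, beside 11.3% of all genes. At an unadjusted p under 0.05 edgeR gave 12 higher and 2 lower. *HERPUD1*, which acts in the degradation of misfolded proteins, was higher by 0.47 on the log2 scale (SE 0.09). The remaining lists gave, as higher and lower, ATF4 targets 5 and 3 of 33 and autophagy and lysosome genes 6 and 3 of 45. ERK feedback genes gave 2 and 3 of 13, glycolysis and hypoxia genes 3 and 1 of 29, and NF-kB response genes 1 and 1 of 11. The shares called were, in this order, 24.2%, 20%, 38.5%, 13.8% and 18.2%, beside 11.3% of all genes. *DUSP4* and *SPRY1*, which damp ERK signalling, were lower (log2 -0.84 and -1.63). *SQSTM1*, an autophagy receptor, was higher by 0.73, and *ATF3*, a stress factor, by 1.41. Of the glycolytic enzymes *PFKP* differed by 0.28, but by 0.18 without 18DS replicate 2, when it no longer passed the test (adjusted p = 0.176). Of the 13 mitochondrially encoded transcripts edgeR called 0, with 1 lower at an unadjusted p under 0.05; DESeq2's Wald test and limma-voom called 0 and library totals in place of TMM scaling 1. ATF4 targets fell from 8 calls to 5 and snoRNA host RNAs from 9 to 5 without BKM120 replicate 1, autophagy genes from 9 to 5 without 18DS replicate 3, and folding genes from 7 to 4 and glycolysis genes from 4 to 2 without BKM120 replicate 3.

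A few genes that belong to none of these lists were among the 10 largest differences in each direction. *CYTIP*, a scaffold of lymphoid cells, read 8.32, 12.5 and 11.2 CPM with 18DS and 45.9, 42.4 and 43.8 CPM with BKM120 (log2 -2.06, SE 0.14). *METTL18*, a histidine methyltransferase, read 2.96, 2.28 and 2.05 CPM with 18DS and 9.66, 11.2 and 9.52 CPM with BKM120 (log2 -2.04). *ARID5B*, *KLHL9*, *PRR15* and *ZNF507* followed at -1.95, -1.93, -1.85 and -1.70. On the higher side *RNVU1-24*, a variant U1 small nuclear RNA, differed by 2.42, but its class lay mostly the other way. Of 3 tested RNVU1 genes 1 was higher and 2 were lower. Of 23 tested small nuclear RNA genes 1 was higher and 9 were lower (median -0.62), beside 4.64% and 6.67% of all genes. These classes were picked after their values were seen. Small nuclear RNAs are multicopy genes whose reads may be shared between copies.

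Seen over all called genes, some features differed between the directions. Among protein-coding genes matched to a transcript model, the median GC content was 52.7% in genes higher with 18DS, 44.0% in genes lower and 47.7% in all tested, and the median transcript length was 3568, 4216 and 3685 bases. Of 307 tested genes whose symbol begins with ZNF, antisense transcripts and pseudogenes included, 36 were lower and 6 higher, with a median of -0.20. The share called, 13.7%, was near the 11.3% of all genes. This family was picked after its values were seen. The letters CACGTG, the E-box bound by MYC and MAX (either strand), occur in 40.0% of the promoter windows of MYC-activated genes and in 31.6% of those of ribosome biogenesis factors, beside 10.5% of tested genes, 12.2% of the genes lower with 18DS and 7.64% of those higher. None of the 12 BET response windows holds them.

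The study holds a second comparison that shares no library with this one, JQ1 against DMSO. Of the 1491 genes called between 18DS and BKM120, 478 were also called there (32.1% of these calls and 59.7% of the 801 JQ1 calls), all 478 in the same direction. Among all tested genes, 6.08% were called with JQ1 against DMSO and 11.3% with 18DS against BKM120. Of the calls of 18DS against BKM120, 93.0% had the same sign with JQ1 against DMSO, and 96.1% of the JQ1 calls had the same sign in 18DS against BKM120. The same-sign share over all tested genes was not computed, so these 2 shares have no baseline here. Over the 13180 genes, which are not independent of each other, the log2 differences had a Pearson correlation of 0.585 and a Spearman correlation of 0.466, given as a description. *MYC* differed by -3.53 with JQ1 against DMSO and by -4.32 with 18DS against BKM120, *HEXIM1* by 1.66 and 1.99, and *H2BC21* by 2.44 and 2.55.

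The difference between these 2 comparisons was tested in the same fit. It asks whether 18DS against BKM120 differs from JQ1 against DMSO, and 16 genes (0.121%) were called, 9 with a positive (0.0683%) and 7 with a negative difference (0.0531%), with 1015 at an unadjusted p under 0.05. The number called ranged from 3 to 31 when 1 library was left out. The difference itself was -1.56 to -1.26 for *KLF2* and 0.77 to 1.00 for *JUNB* over the 12 such fits. *RBMS1*, an RNA-binding protein, *CCDC117* and *ST3GAL6*, a sialyltransferase, kept the call in all 12 of them (*CCDC117* and *ST3GAL6* are named after their values were seen). *RBMS1* read 80.2, 83.0 and 83.0 CPM with BKM120 and 29.6, 33.4 and 35.8 CPM with 18DS, a difference of -1.32, where JQ1 against DMSO gave -0.44 (difference of the 2 values -0.88, SE 0.14, adjusted p = 0.00188). *CCDC117* was near 46 CPM in DMSO and JQ1 and 77.0 to 78.7 CPM with BKM120, and 36.3 to 47.6 CPM with 18DS.

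*CDKN1A* was called in this test too. It was higher by 2.31 with 18DS against BKM120 and by 0.81 with JQ1 against DMSO, so the former exceeded the latter by 1.5 (SE 0.28, adjusted p = 0.0145), and the call was lost without BKM120 replicate 1 (adjusted p = 0.0794) or DMSO replicate 3 (adjusted p = 0.0586). *KLF2* differed by -1.41 between the comparisons (SE 0.22, adjusted p = 0.0321), and this call held in 4 of the 12 fits with a library left out, those without 18DS replicate 2, 18DS replicate 3, JQ1 replicate 1 or JQ1 replicate 2. *TP53INP1* and *HBP1* were not called in it, and neither was *MYC*.

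**Figure D5:**
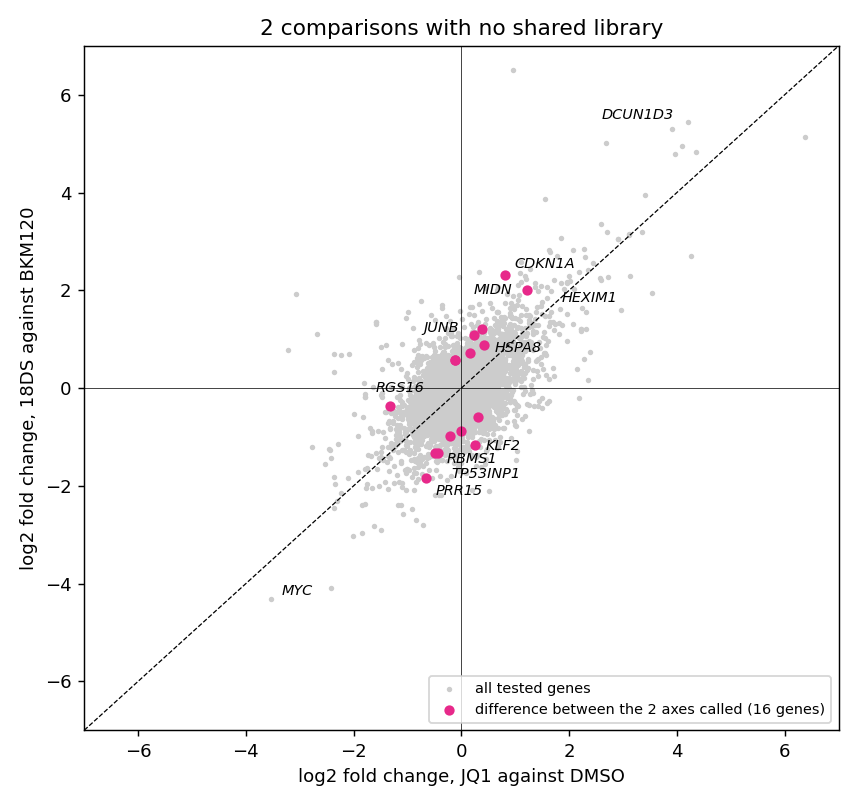
Each point is a tested gene, placed by its log2 fold change with JQ1 against DMSO (horizontal) and with 18DS against BKM120 (vertical), 2 comparisons that share no library; the dashed line marks equal values. Pink points are the 16 genes for which the difference between the axes was called; *CDKN1A* and *JUNB* lie above the line, *KLF2*, *RBMS1* and *PRR15* below it, *MYC* (-3.53 and -4.32) lies far out at the lower left and *DCUN1D3* (4.21 and 5.43) at the upper right.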

How the data were processed

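RNA of OPM2 cells was sequenced in 12 libraries (4 groups of 3) with the QuantSeq 3′ kit and 75-base single-end reads, per the labels' protocols. The authors deposited raw counts per Ensembl gene as whole numbers. Per the submitters' processing notes, reads were handled with HISAT2 2.1.0, cutadapt 1.7, featureCounts of Subread, SAMtools 1.9, limma, bcl2fastq 2.17.1.14 and FastQC 0.11.5 (no role is stated), on the build hg19. Not given in the sources used here are the annotation release, the strand setting and how multiply mapped reads were treated, so reads of near-identical copies and of antisense pairs cannot be assigned with certainty, and no hg19 coordinates are printed. Promoters are from a RefSeq table of GRCh38.p14, matched by symbol.

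Gene symbols were looked up for 39560 of 63152 identifiers (9.12% of counts had none). Counts were filtered with filterByExpr (minimum count 10, minimum total 15), scaled by TMM (factors 0.971 to 1.033) and fitted with edgeR 4.0.16 in R 4.3.3 by a robust quasi-likelihood model over the 12 libraries, which shares the spread between groups (biological coefficient of variation 0.0862). Adjusted p-values are Benjamini-Hochberg over the 13180 tested genes, and called means under 0.05. SE is the size of the log2 fold change divided by the root of its F statistic. Library means and SD are in CPM after TMM. The test was tried on simulated counts of 13180 genes, 200 of them changed, and made 155 calls, of which 11 (7.10%) were false. It recovered 32% of the 1.5-fold changes, 64% of the 2-fold, 94% of the 4-fold and 98% of the 8-fold changes. Other settings used limma 3.58.1 and DESeq2 1.42.0, other scalings and filters, only the 6 libraries compared, blocking on replicate number, and leaving out each library. Figures were drawn with matplotlib 3.10.9.

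The genes and 31 lists (1129 entries, 27 unmatched) were chosen with earlier results of these data known, so no list is independent evidence. Lists are given by counts and medians beside all genes tested, with no set test. Named genes are 16 fixed ones, the 10 largest called differences in each direction whose libraries did not overlap and whose mean reached 5 CPM, up to 4 called members of smallest p from each list with at least 3 called members, and the 4 largest in each direction for the difference from JQ1 against DMSO. Other genes named were picked after their values were seen.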

Additional observations from a re-analysis of the deposited data

Results flagged for a closer look

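For 15 genes with a symbol, the change from BKM120 to 18DS differed from the change from DMSO to JQ1 in a test of that difference (edgeR, adjusted p under 0.05). The values below are the log2 change of 18DS against BKM120 minus that of JQ1 against DMSO. They were negative for *RBMS1* (-0.88), *CCDC117* (-0.87), *ST3GAL6* (-0.85), *IL6ST* (-0.78), *KLF2* (-1.41), *BRD8* (-0.90) and *PRR15* (-1.20). They were positive for *CDKN1A* (1.5), *RGS16* (0.96), *JUNB* (0.85), *SLC35A2* (0.82), *MIDN* (0.78), *RIOX1* (0.71), *MAT2A* (0.56) and *HSPA8* (0.47). The genes outside the rule for named genes, *CCDC117*, *ST3GAL6*, *MIDN*, *MAT2A* and *RIOX1*, are given because they complete the count. *RIOX1* shares identical counts with an unnamed identifier, which is the 16th call, so the pair is 1 measurement.

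*RBMS1*, *CCDC117* and *ST3GAL6* kept the call with each of the 12 libraries left out in turn. *CDKN1A* kept it in 10 of these fits, *JUNB* in 8, *MIDN* in 7, *RIOX1* and *SLC35A2* in 6, *MAT2A*, *RGS16*, *IL6ST* and *HSPA8* in 5, *KLF2* in 4, *PRR15* in 3 and *BRD8* in 2. *PRR15* lost it without 18DS replicate 2 (adjusted p = 0.0557), the library that stood apart, and the other 14 kept it. *RGS16*, a regulator of G protein signalling, fell with JQ1 against DMSO by 1.32 on the log2 scale, and its difference of -0.37 between 18DS and BKM120 passed the test only without 18DS replicate 1 (-0.47, adjusted p = 0.0488) among the settings tried.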

How the results depend on the processing

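The number of genes called between 18DS and BKM120 was 1491, and over 22 other settings it lay between 1028 (without BKM120 replicate 1) and 1556 (library totals in place of TMM). DESeq2's Wald test called 1170, limma-voom 1408, and the fit of the 6 compared libraries alone 1094. Library totals gave 498 higher and 1058 lower genes where TMM gave 612 and 879, and moved the median of all genes to -0.03. Of the 101 called named genes, 93 kept call and direction in every setting, and 8 lost the call in at least 1. The difference from JQ1 against DMSO gave 16 calls, but 8 with limma-voom, 10 without the robust option, 45 without a filter on low counts and 3 to 31 with 1 library left out; the cause was not tested. The log2 difference of *IRS2* (-0.01) turned to 0.0104 with limma-voom and ranged from -0.16 (leaving out BKM120 replicate 2) to 0.14 (leaving out BKM120 replicate 3) over the fits with 1 library left out, turning positive in 4 of them. Same-numbered libraries of the 2 groups did not vary together (correlations 0.0221, -0.128 and -0.0500). With the replicate block 1445 genes were called in the comparison and 16 in the difference. *TPI1*, near the threshold in the main edgeR fit (adjusted p = 0.0464), lost its call in 11 of the 22 other settings. These included edgeR with the block (adjusted p = 0.0609) and edgeR without the robust option (adjusted p = 0.0611). With 3 libraries a group, differences of low genes such as *PIK3IP1* carry wide errors, and a difference that missed the threshold is not shown to be absent.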
